A study of Ovis aries with 24 samples.

Results

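The comparison described here set sheep pituitary cells sorted for a gonadotrope label against unsorted pituitary cells, all of them treated with estradiol-17β (E2). Its members are 12 of the 24 libraries of the series, 6 sorted and 6 unsorted, chosen by the treatment and sorting in their labels and set side by side by replicate number. Both groups came from pituitaries of ovariectomized ewes of the Western white faced breed, which were dispersed and kept in culture. At 24 hours after dispersal the cultures received an adenovirus that directs green fluorescent protein to gonadotropes by its transcriptional targeting, and 3 days later they were given 10 nM E2 for 6 hours. The sorted group is the labelled cells collected by fluorescence-activated cell sorting, and the unsorted group is anterior pituitary cells from the same kind of infected culture. The labels do not say whether the unsorted cells also passed through the sorter, nor whether a library came from 1 ewe or a pool. The other 12 libraries are sorted and unsorted cells that received the ethanol vehicle in place of E2, and they enter only the test of whether sorting made a different difference with E2.

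Gonadotropes are the anterior pituitary cells that make luteinizing hormone and follicle-stimulating hormone, each a dimer of the shared alpha subunit CGA with its own beta subunit, LHB or FSHB. They respond to hypothalamic gonadotropin-releasing hormone (GnRH) through the receptor GNRHR, and the nuclear receptor NR5A1 (SF-1) drives several of their genes. Estradiol from the ovary acts on these cells through the estrogen receptor ESR1. A mixed pituitary culture also holds lactotropes, somatotropes, corticotropes and thyrotropes, the non-endocrine folliculostellate cells, and fibroblasts, endothelium and leukocytes.

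The 12 E2 libraries held 4185088 to 37018975 reads counted in genes. Replicates 1 to 3 were shallow, at 4185088 to 5498603 reads in sorted and 5578703 to 5977414 in unsorted libraries. Replicates 4 to 6 were deep, at 20690966 to 21859964 reads in sorted and 32065014 to 37018975 in unsorted libraries. Each unsorted library was thus deeper than its same-numbered sorted library. The part this depth difference plays in the sorted-minus-unsorted values was not tested. Of 27054 features, 14545 had enough counts to test, and all levels below are CPM, read counts divided by a library total that was scaled by the trimmed mean of M-values. The largest principal component, with 54.3% of the variance, separated the sorted from the unsorted libraries, and the next, with 19.0%, separated the shallow from the deep replicates. The comparison was defined as paired by replicate number, which was kept as a block. Samples with the same replicate number deviated together from their group means, with correlations of 0.32 to 0.53. No label says that replicates are separate animals or cultures, so the p-values measure only the spread between these samples.

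Sorted and unsorted cells treated with E2 differed at most of the genes tested. Of the 14545 genes tested, 9555 (65.7%) passed an adjusted p of 0.05 in edgeR's quasi-likelihood test. In the sorted cells 4933 (33.9%) of the tested genes were higher and 4622 (31.8%) were lower. These shares are the background for each count of list members below. Differences of at least 2-fold were more common on the lower side, with 2060 genes (14.2%) against 1031 (7.09%) on the higher side. Expression values of the groups did not overlap for 1866 genes that were above in all sorted libraries (12.8%) and for 2305 that were below (15.8%). The median log2 fold change over all tested genes was 0.02. Of the 8931 called genes that could be tested in the shallow and in the deep replicates separately, 8905 had the same sign in both. These genes were called on the same libraries pooled, so their selection largely set this count, and it is no separate test. Of genes also tested over all 6 replicates, 54.4% were called in the shallow replicates alone and 67.7% in the deep ones alone, and without the replicate block 51.8% of the tested genes were called. The log2 fold changes below are sorted minus unsorted with their standard error, over 6 libraries a group, and a value with ± in parentheses after a gene's name is its log2 fold change. In these bulk libraries fewer cells of a type and less RNA per cell cannot be told apart.

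Genes of a gonadotrope list were among the most enriched. In the list of gonadotrope genes 9 of 12 tested members were higher in the sorted cells and 1 was lower, against 33.9% and 31.8% of all genes, and the list's median log2 fold change was 1.90. Besides hormone subunits, receptor and lineage factors the list holds CAMTA1, a marker given for this comparison. It also holds EGR1, which is counted again among the immediate-early genes and had the list's largest log2 fold change, 3.59. Both are among the 9 higher members. CGA and NR5A1, also higher, were given as markers too, so the list's count and median are not independent of that choice. CGA (ENSOARG00000013153), the common alpha subunit, had 1952, 2719 and 3392 CPM as lowest, median and highest of the sorted libraries and 157, 437 and 738 CPM in the unsorted ones. All sorted libraries were above all unsorted libraries, and the log2 fold change was 2.67 ± 0.21 (adjusted p = 1.11e-05). NR5A1 (ENSOARG00000013422) ranged from 15.5 to 44.9 CPM with a median of 29.8 in sorted cells, and from 2.06 to 10.4 with a median of 4.11 in unsorted cells. The ranges were again apart, with a log2 fold change of 2.52 ± 0.16 (adjusted p = 5.98e-07). CAMTA1 (ENSOARG00000010701), a calmodulin-binding transcription activator, was between 155 and 195 CPM in the sorted and between 43.5 and 55.4 CPM in the unsorted libraries. Its 1.89 ± 0.08 log2 fold change had the smallest standard error of the 3, and the groups were far apart.

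**Figure D1:**
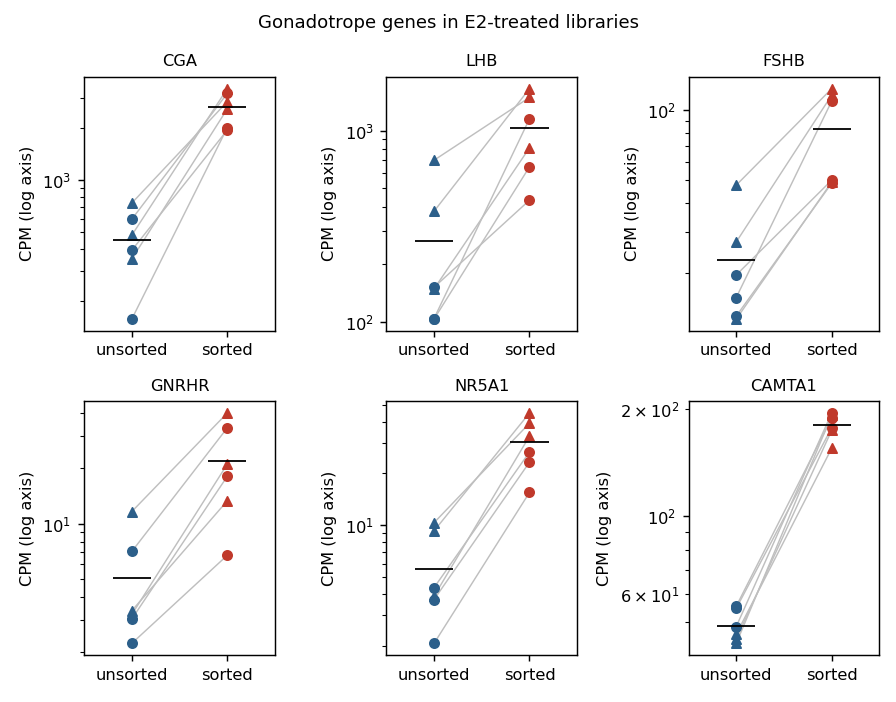
CPM on a log axis of 6 genes of the gonadotrope list in the 6 unsorted (blue) and 6 sorted (red) E2-treated libraries. Lines join equal replicate numbers, with circles for replicates 1 to 3, triangles for 4 to 6 and black bars for group means. Each line rises, and LHB and GNRHR are the genes whose group ranges overlap.

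The hormone beta subunits and the GnRH receptor moved in the same direction. LHB ran from 433 to 1655 CPM with a median of 982 in the sorted cells, and from 104 to 700.1 with a median of 151 in the unsorted cells. The highest unsorted library stood above the lowest sorted library, so the ranges overlapped although each sorted library exceeded its same-numbered partner (log2 fold change 2.20 ± 0.33, adjusted p = 0.00133). FSHB ran from 48.6 to 124 CPM (median 79.9) in sorted and from 12.7 to 47.7 CPM (median 17.6) in unsorted cells, a difference of 1.90 ± 0.18 on the log2 scale with no overlap. GNRHR was at 6.73 to 40.0 CPM (median 19.6) against 2.23 to 11.6 CPM (median 3.29), a log2 fold change of 2.16 ± 0.16 with overlapping ranges. In each group the highest library had more than 2 times the lowest for each of these 3 genes, a wider spread than that of CAMTA1. In the shallow replicates alone the log2 fold changes of CGA, LHB, FSHB and GNRHR were 2.79, 2.54, 2.04 and 2.20, and in the deep ones 2.53, 1.86, 1.78 and 2.11.

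Other gonadotrope-associated genes moved less. The secreted phosphoprotein SPP1 was higher by 0.73 ± 0.10 log2 units. PITX1, a homeobox factor, was the lower member, at -0.49 ± 0.09, and did not pass the threshold without the replicate block (adjusted p = 0.0865). ISL1, a LIM-homeobox factor (0.26 ± 0.17), and DLK1, a transmembrane ligand (0.14 ± 0.36, mean 0.920 against 0.680 CPM), did not pass. ISL1 passed in the deep replicates alone, at a log2 fold change of 0.51 with an adjusted p of 0.0154, and without the sorted or the unsorted library of replicate 2 (0.42 and 0.43, adjusted p = 0.0102 and 0.0109), so that 1 pair decided the call.

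Hormone genes of other endocrine cells were also higher in the sorted preparation, by smaller amounts. All 5 tested corticotrope genes, 6 of 7 lactotrope genes and 7 of 10 somatotrope genes were higher, and no gene of these lists was lower. Over all genes 33.9% were higher and 31.8% lower. Without the replicate block the counts of higher genes were 4, 4 and 5. Median log2 fold changes were 0.79, 0.61 and 0.60. PRL, the prolactin gene of lactotropes, lay between 57388 and 155961 CPM in the sorted and between 41421 and 96386 CPM in the unsorted libraries. These ranges overlapped, yet PRL was higher in the sorted member of 6 of 6 pairs, with a log2 fold change of 0.62 ± 0.14 (adjusted p = 0.00239). GH, growth hormone, was at 8719.5 to 76710.1 against 5171 to 58930.2 CPM, so that libraries of 1 group differed more than the groups did. Its 0.70 ± 0.15 log2 fold change passed with the block (adjusted p = 0.00208) and did not without it (0.388) or in DESeq2 (0.358).

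POMC, the corticotropin precursor of corticotropes, was at a mean of 293 against 181 CPM. Its log2 fold change of 0.69 ± 0.24 sat near the threshold (adjusted p = 0.0425), and it was not called when either the sorted or the unsorted library of replicate 1, 3, 4 or 6 was left out, nor did the fit without the block (0.07). TBX19, the factor that specifies corticotropes, was higher by 0.86 ± 0.13, the heparan sulfate proteoglycan GPC5 by 0.61 ± 0.17 and the corticotropin-releasing hormone receptor CRHR1 by 0.79 ± 0.30, the last at means of 1.93 and 1.05 CPM. CRHR1 was not called without either library of replicates 1 or 2 and had too few counts to test without those of replicates 4, 5 or 6. The list's count was 3 without either library of replicates 1, 4 or 6, and 2 in the deep replicates alone. PCSK1, a prohormone convertase that corticotropes share with other endocrine cells, stood apart with 57.8 to 162 CPM in sorted and 9.21 to 17.6 CPM in unsorted libraries, a log2 fold change of 2.90 ± 0.20.

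The prolactin receptor PRLR had the largest difference of the lactotrope list (1.29 ± 0.10). Also higher were the dopamine receptor DRD2 (0.56 ± 0.08) of lactotropes and, in the somatotrope list, the somatostatin receptor SSTR5 (1.20 ± 0.22) and the retinoid receptor RXRG (0.59 ± 0.10). The neuropeptide gene GAL was called at 0.65 ± 0.14 with the block and not without it (adjusted p = 0.42). Of the 4 thyrotrope genes TSHB, the thyrotropin beta subunit (0.76 ± 0.16), and the thyrotropin-releasing hormone receptor TRHR (0.40 ± 0.15) were higher. The repressor TBX3 was lower (-0.54 ± 0.12) and the deiodinase DIO2 did not pass (-0.09 ± 0.16). That is 50% higher and 25% lower of only 4 genes, against 33.9% and 31.8% of all genes. Neither TSHB nor TRHR passed without the block (adjusted p = 0.0855 and 0.17). TRHR was also not called without either library of replicates 2, 3, 5 or 6, which left 1 thyrotrope gene higher. It is counted in the lactotrope list too.

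Pituitary transcription factors were higher more often than lower, with 11 and 4 of 21 called and a median of 0.37. That is 52.4% and 19%, against 33.9% higher and 31.8% lower of all genes. LHX3, a LIM-homeobox factor needed for most anterior pituitary lineages, was higher by 1.66 ± 0.11 (mean 56.3 against 17.7 CPM). The basic helix-loop-helix factor NEUROD4 (0.88 ± 0.07) and POU1F1, the factor of the lactotrope, somatotrope and thyrotrope lineages (0.62 ± 0.08), were higher by less. CREB3L2, a membrane-bound factor of the secretory pathway, was lower by a log2 change of -0.95 ± 0.07.

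As a share of all counts the 7 hormone genes PRL, GH, POMC, TSHB, CGA, LHB and FSHB took 15.3% ± 3.98 (SD, n = 6) of the sorted and 9.61% ± 3.12 (SD, n = 6) of the unsorted libraries. PRL alone took 11.5% ± 3.52 against 7.36% ± 1.98. Each share was higher in the sorted member of 6 of 6 pairs. The exact 2-sided sign-flip permutation test over the 6 pairs gave p = 0.03125, the smallest it can give with 6 pairs, and 0.03125 after adjustment over the 4 shares compared. Sorted replicate 6 stood below its group, with a hormone share of 7.54% where the next sorted library had 15.5%, and its unsorted partner, at 4.90%, was the lowest of the unsorted libraries.

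**Figure D2:**
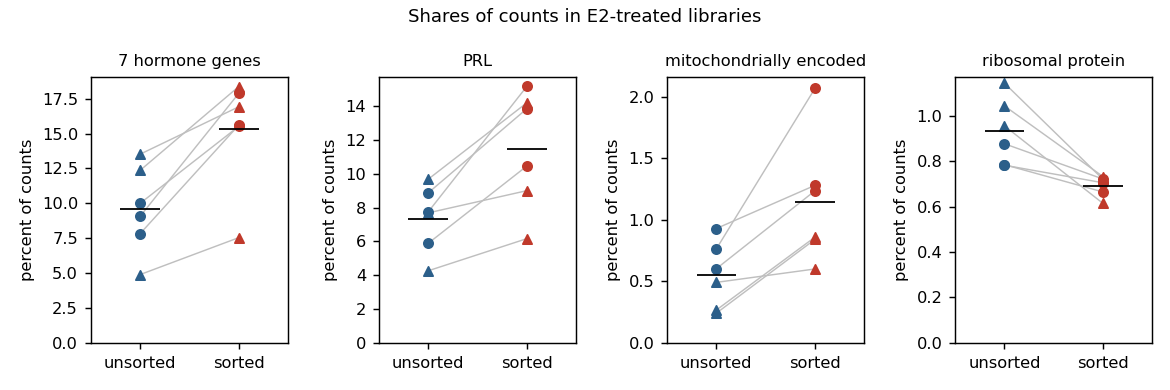
Percent of all counts taken by 7 hormone genes, by PRL alone, by 12 mitochondrially encoded genes and by 19 ribosomal protein genes in unsorted (blue) and sorted (red) E2-treated libraries, with lines joining equal replicate numbers, circles for replicates 1 to 3, triangles for 4 to 6 and black bars for means. The first 3 shares are higher in the sorted library of each pair and the ribosomal protein share is lower in each.

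Immediate-early genes, the first to be transcribed after a stimulus, were found on both sides. Of 30 tested, 11 were higher and 12 lower, with a median of -0.02. These shares are near the 33.9% higher and 31.8% lower of all genes. EGR1, a zinc-finger factor that acts with NR5A1 at the LHB promoter, was at 76.1 to 227 CPM (median 148) in sorted and 9.78 to 17.4 CPM (median 11.2) in unsorted libraries. That is a log2 fold change of 3.59 ± 0.13 with no overlap, the largest increase among genes with a symbol and a call whose higher group averaged 5 CPM or more. FOS, an AP-1 subunit, lay between 148 and 354 CPM against 19.7 and 37.9 CPM (2.90 ± 0.16), and its relative FOSB between 14.9 and 36.2 against 1.18 and 5.30 CPM (2.96 ± 0.28). The ERK phosphatase DUSP2 was at a median of 4.74 against 0.524 CPM (3.51 ± 0.25).

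Other members were lower in the sorted cells. MYC, a growth-promoting transcription factor, had 18.8 to 31.3 CPM in the sorted and 95.2 to 126 CPM in the unsorted libraries, with the ranges far apart (-2.14 ± 0.08). The ERK phosphatase DUSP6 (-2.15 ± 0.11) and the stress-induced IER3 (-2.17 ± 0.10) were lower by a similar amount. JUN, the partner of FOS in AP-1, did not pass (0.14 ± 0.11, adjusted p = 0.292), although it did in the shallow replicates alone (log2 fold change 0.33, adjusted p = 0.0363).

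**Figure D3:**
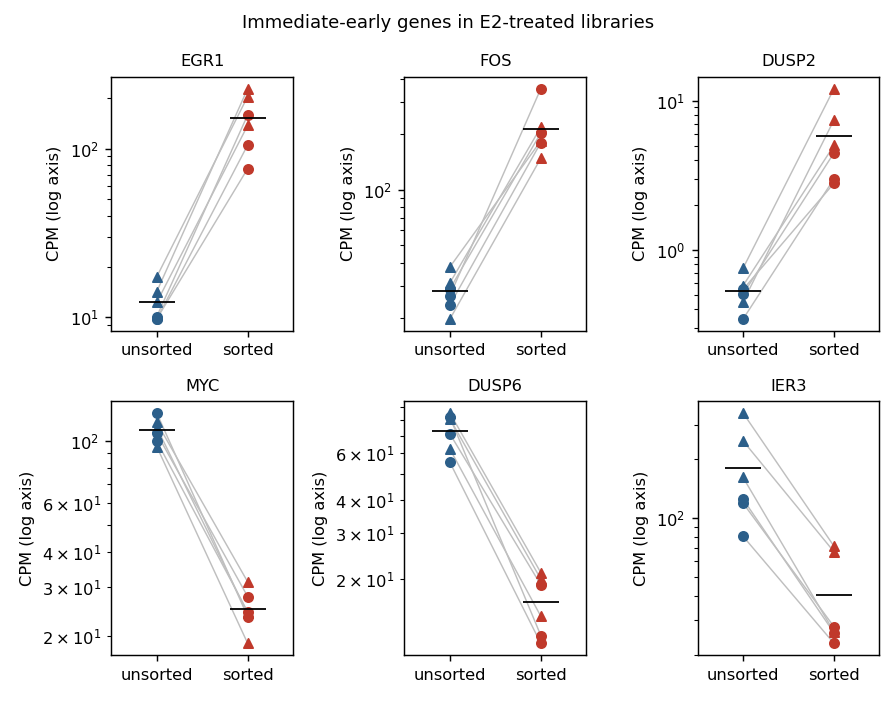
CPM on a log axis of 6 immediate-early genes in the 6 unsorted (blue) and 6 sorted (red) E2-treated libraries, with lines joining equal replicate numbers, circles for replicates 1 to 3, triangles for 4 to 6 and black bars for group means. EGR1, FOS and DUSP2 are higher and MYC, DUSP6 and IER3 lower in each sorted library, with no overlap between groups.

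Genes of a GnRH receptor signalling list were called in shares near those of all genes (33.9% higher and 31.8% lower). This list holds GNRHR itself, which is counted in the gonadotrope list too. Of 34 tested, 13 were higher, 10 lower and 11 not called (median 0.10). The phospholipase C isoform PLCB4, which acts after Gq-coupled receptors, was higher by 1.37 ± 0.07, and its relative PLCB3 was lower, at -1.0 ± 0.10. The kinase SRC was lower as well (-0.90 ± 0.09).

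Genes of regulated secretion and electrical excitability were widely enriched. In the secretory granule list 29 of 37 were higher and 2 lower (median 0.81), and the list's summed level was 14341 to 17571 CPM in the sorted and 6466 to 8458 CPM in the unsorted libraries. The calcium sensors of exocytosis SYT1 (1.47 ± 0.09) and SYT7 (1.11 ± 0.08), the SNARE protein SNAP25 (1.30 ± 0.08) and the vesicle glycoprotein SV2A (1.77 ± 0.13) were among those with the smallest p. SYT1 had a mean of 98.0 against 35.0 CPM and SNAP25 of 152 against 61.3 CPM. The members that went the other way were the priming factor CADPS2 (-1.36 ± 0.16) and DOC2B, a calcium sensor (-0.52 ± 0.16), which was not called without either library of replicate 6.

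For voltage-gated calcium and sodium channels the count was 21 of 26 higher and 1 lower (median 0.96). The L-type calcium channel subunit CACNA1D was higher by 1.47 ± 0.13, the sodium leak channel NALCN by 1.23 ± 0.10, the sodium channel beta subunit SCN3B by 1.05 ± 0.10 and the calcium channel gamma subunit CACNG7 by 1.35 ± 0.14. CACNA1A, the P/Q-type pore subunit, was the lower one (-0.77 ± 0.18), and a further gene was lower without either library of replicates 1 or 6. Of 45 potassium channel genes 25 were higher and 8 lower (median 0.59), the lower count being 5 without either library of replicates 5 or 6. The 25 and 8 are 55.6% and 17.8%, against 33.9% higher and 31.8% lower of all genes. KCNH7 (2.32 ± 0.18) and the sodium-activated KCNT1 (1.56 ± 0.11) were on the higher side. KCNMB1, the beta subunit of the large-conductance calcium-activated channel in smooth muscle, was lower by a log2 change of -3.03 ± 0.21 (mean 3.85 against 30.7 CPM).

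Ligand-gated channel genes gave 17 higher and 3 lower of 30 (median 0.74), with 11 higher without either library of replicates 4 or 6 and in the shallow replicates alone. The 17 and 3 are 56.7% and 10%, against 33.9% higher and 31.8% lower of all genes. The glutamate receptor subunit GRIA2 ran from 9.35 to 37.3 CPM in the sorted and from 1.20 to 5.25 CPM in the unsorted libraries (2.97 ± 0.11). The GABA-A receptor subunit GABRA3 ran from 7.56 to 21.6 against 0.454 to 2.02 CPM (3.09 ± 0.21). For both, the ranges of the groups were apart. The kainate receptor subunit GRIK2 (1.20 ± 0.08) was higher by less.

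Steroid receptors and their coregulators, through which E2 and other steroids act, were higher in 8 of 12 cases and lower in 1 (median 0.56). The lower count was 0 without either library of replicates 3 or 4 and without the block. ESR1 was at 32.2 to 40.9 CPM in sorted and 15.5 to 24.2 CPM in unsorted libraries (0.94 ± 0.10, adjusted p = 1.93e-05), with no overlap. The glucocorticoid receptor NR3C1 (0.68 ± 0.07), the corepressor NCOR1 (0.73 ± 0.06) and the steroid-binding globulin gene SHBG (1.42 ± 0.11) were higher.

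Genes known as estrogen targets in other tissues were divided between the groups, 9 higher and 11 lower of 23 (median -0.09). That is 39.1% and 47.8%, against 33.9% higher and 31.8% lower of all genes. GREB1, an estrogen-induced cofactor of ESR1, was at 38.9 to 132 CPM (median 102) in sorted and 12 to 59.9 CPM (median 23.3) in unsorted cells. It was higher in each sorted library than in its partner (1.78 ± 0.14), while the ranges overlapped. The Ras-like GTPase RASD1 (1.53 ± 0.11), the guanine nucleotide exchange factor-like RAPGEFL1 (1.42 ± 0.11) and the corepressor NRIP1 (0.74 ± 0.08) were higher, and the kinase SGK3 was lower (-1.36 ± 0.11).

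Marker lists of non-endocrine cells were mostly lower in the sorted cells. Of 18 folliculostellate and stem cell genes 14 were lower and 3 higher (median -1.80), and their summed level was 2542 to 3285 CPM in the sorted and 5919 to 7846 CPM in the unsorted libraries. SOX2, the transcription factor of pituitary stem cells, had 0.705 to 2.29 CPM in the sorted and 7.08 to 14.0 CPM in the unsorted libraries, well apart (-2.85 ± 0.16). Vimentin, VIM (-2.02 ± 0.11), the retinoic acid enzyme ALDH1A2 (-2.32 ± 0.14) and the galectin LGALS3 (-1.66 ± 0.11) were lower too. The exceptions were ALDH1A1 (0.47 ± 0.08), the ciliary factor FOXJ1 (1.13 ± 0.21) and S100B, a calcium-binding protein used to mark folliculostellate cells (0.57 ± 0.11).

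Epithelial keratin and junction genes were lower in 18 of 26 cases (median -1.68). KRT17 had medians of 15.4 and 266 CPM in sorted and unsorted libraries (-3.93 ± 0.27), and KRT14 (-3.70 ± 0.22), KRT5 (-3.40 ± 0.33), KRT13 (-2.80 ± 0.18) and KRT8 (-2.01 ± 0.11) were lower as well. Also lower were the tight junction protein CLDN1 (-2.32 ± 0.12) and the laminin chain LAMB3 (-2.33 ± 0.12). The adhesion molecule EPCAM (0.57 ± 0.10), the splicing regulator ESRP1 (0.89 ± 0.08) and the epithelial factor ELF3 (1.32 ± 0.13) were the 3 higher members.

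Fibroblast and pericyte genes were lower in 16 of 19 cases (median -2.21), with a summed level of 1284 to 3268 CPM in the sorted and 8247 to 16123 CPM in the unsorted libraries. The smooth muscle actin ACTA2 was at 169 to 480.1 CPM in sorted and 1855 to 3047 CPM in unsorted cells (-2.95 ± 0.13). The actin-binding proteins TAGLN (-2.69 ± 0.13) and CNN1 (-2.72 ± 0.09) fell with it, and the microfibril protein MFAP4 fell furthest, from a median of 40.9 to 1.91 CPM (-4.03 ± 0.16). DCN, decorin, was the higher member (0.69 ± 0.16), and was not called without the block (adjusted p = 0.062). ACTA2 was still present in each sorted library.

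Endothelial genes were lower in 10 of 13 cases (median -1.87), at low levels throughout, with a summed level of 23.6 to 73.3 CPM in the sorted and 63.8 to 137 CPM in the unsorted libraries. ERG, an endothelial transcription factor (-2.65 ± 0.32), the sialomucin EMCN (-2.19 ± 0.26), the guidance receptor ROBO4 (-2.10 ± 0.34) and the vascular growth factor receptor FLT1 (-1.87 ± 0.29) were lower. The angiopoietin receptor TEK was higher (0.77 ± 0.22). Of the 19 leukocyte genes with a feature only 8 had enough counts to test. Of these, 2 (25%) were higher and 3 (37.5%) lower, near the 33.9% and 31.8% of all genes. The macrophage colony-stimulating factor receptor CSF1R was at 0 to 0.264 CPM in the sorted and 0.905 to 6.40 CPM in the unsorted libraries (-4.32 ± 0.44), and the integrin ITGAM (-2.52 ± 0.37) and the lipopolysaccharide coreceptor CD14 (-0.77 ± 0.18) were lower too. The T cell gene CD3E (0.99 ± 0.21) and the B cell gene CD79A (0.99 ± 0.22) were higher, at means of 2.49 and 3.04 CPM. The number of lower leukocyte genes varied with the filter and the libraries. It was 9 without a filter, 1 under a stricter filter, 1 without either library of replicates 4, 5 or 6, 6 or 7 without a sorted library of replicates 1 to 3, 6 without unsorted replicate 1, and 0 and 6 in the shallow and the deep replicates alone. None of 5 red blood cell genes could be tested. The part that these marker gene differences play in those of other genes was not tested.

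**Figure D4:**
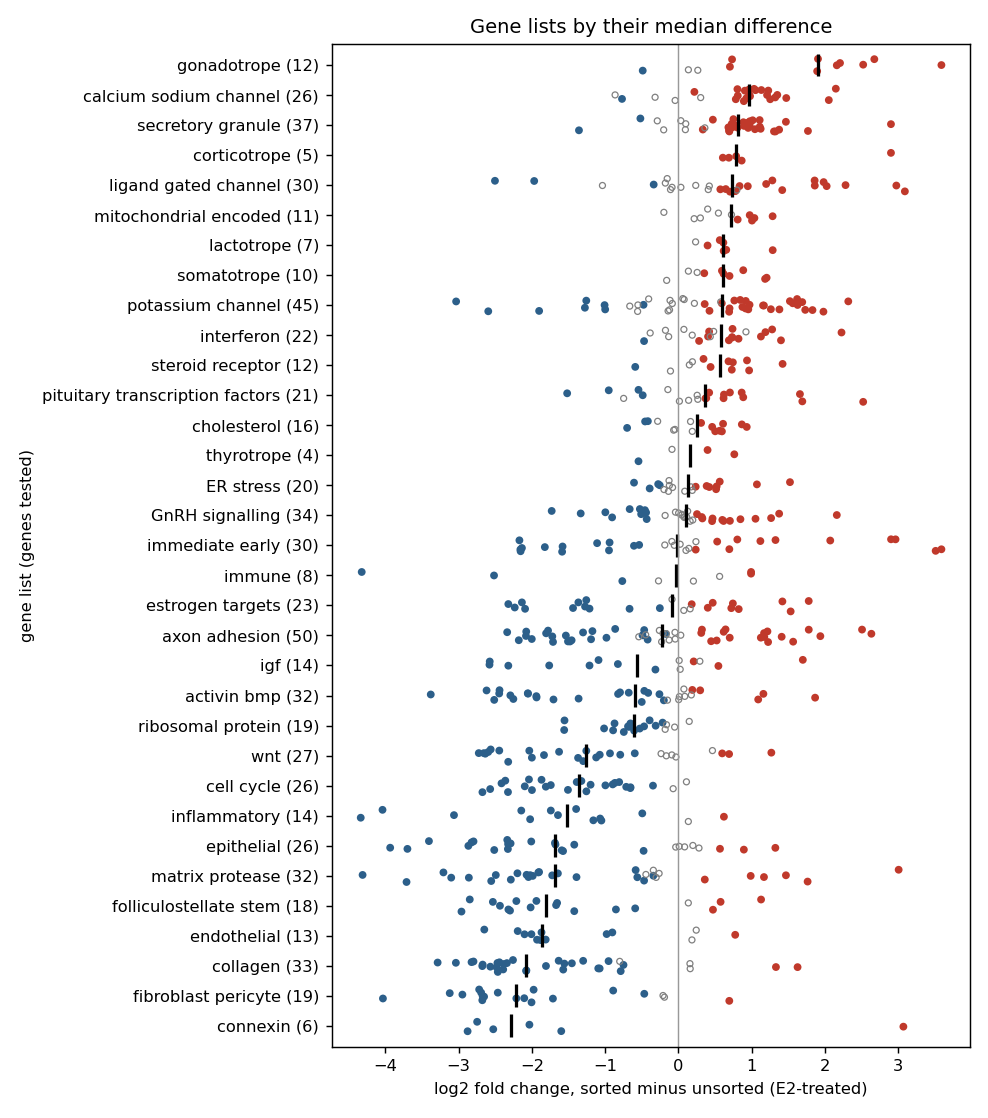
Log2 fold changes (x axis, sorted minus unsorted, E2-treated) of the tested members of 33 gene lists (y axis, with the number tested), ordered by the list median (black bar). Red and blue points passed an adjusted p of 0.05 and open points did not, and the gonadotrope list has the highest median, 1.90, and the connexin list the lowest, -2.28.

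Extracellular matrix genes were mostly lower as well. Of 33 collagens 28 were lower and 2 higher (median -2.07). The fibrillar chains COL1A2 (-2.68 ± 0.14), COL2A1 (-2.82 ± 0.16) and COL11A1 (-2.44 ± 0.09) and the microfibrillar COL6A1 (-3.04 ± 0.18) were lower. COL15A1, a basement membrane collagen, was higher in sorted cells without overlap (1.62 ± 0.28), and COL28A1 was higher (1.33 ± 0.24) with the block only (adjusted p without it 0.0694). The higher count was 4 without any 1 library of replicates 1 to 3. Of 32 genes for matrix proteases, their inhibitors and crosslinking enzymes 22 were lower and 6 higher (median -1.68). The collagenase MMP13 fell from 2.54 to 26.1 CPM in unsorted to 0.186 to 1.30 CPM in sorted libraries (-4.31 ± 0.24), and the membrane-bound MMP14 (-2.29 ± 0.12) and the lysyl oxidase-like LOXL3 (-1.99 ± 0.11) fell. A2M, alpha-2-macroglobulin, a broad protease inhibitor, went the other way, from 461 to 1059 CPM to 2826 to 7134 CPM (3.00 ± 0.16), with no overlap.

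Growth factor pathway genes were lower more often than higher. In the activin, follistatin and BMP list 21 of 32 were lower and 5 higher (median -0.59). The ligands TGFB1 (-1.94 ± 0.12), TGFB2 (-2.44 ± 0.11) and TGFB3 (-3.38 ± 0.19), the BMP antagonist CHRD (-1.70 ± 0.11) and ID3, a BMP target (-2.25 ± 0.12), were lower. The 5 higher members were the activin receptors ACVR1B (1.16 ± 0.09), ACVR2B (1.09 ± 0.14) and ACVR2A (0.30 ± 0.10), the co-receptor TGFBR3 (1.86 ± 0.16) and the signal transducer SMAD2 (0.19 ± 0.06). ACVR2A and SMAD2 did not pass without the block (adjusted p = 0.0815 and 0.0739). ACVR2A was not called without either library of replicates 5 or 6, and SMAD2 was not called in 8 of 12 left-out fits (sorted replicates 2, 4, 5 and 6, unsorted replicates 1, 4, 5 and 6). The count of higher members was 3 without either library of replicates 5 or 6.

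In the insulin-like growth factor system 8 of 14 genes were lower and 3 higher (median -0.57), with 1 higher without either library of replicates 4, 5 or 6. The 8 and 3 are 57.1% and 21.4%, against 31.8% lower and 33.9% higher of all genes. The binding proteins IGFBP2 (mean 460.3 against 2757 CPM, -2.57 ± 0.11) and IGFBP6 (-2.58 ± 0.12) and the RNA-binding protein IGF2BP2 (-1.76 ± 0.13) were lower, and the insulin receptor INSR was higher (0.54 ± 0.06). Wnt pathway genes gave 19 lower and 3 higher of 27 (median -1.26), among them the ligands WNT5A (-2.59 ± 0.14) and WNT5B (-2.72 ± 0.16) and the antagonists DKK1 (-2.32 ± 0.13) and DKK3 (-1.83 ± 0.10), all lower. Without either library of replicates 3 or 4 the higher Wnt count was 1. Connexins, the gap junction subunits, were lower in 5 of 6 cases, including GJA1 (-2.88 ± 0.17), GJA5 (-2.53 ± 0.27) and GJC1 (-1.60 ± 0.18). GJD2, the neuronal and endocrine connexin, was the higher one, at a mean of 9.44 against 1.29 CPM (3.07 ± 0.36). Axon guidance and neuronal adhesion genes were mixed, 18 higher and 22 lower of 50 (median -0.22). That is 36% and 44%, against 33.9% higher and 31.8% lower of all genes. The synaptic adhesion protein NRXN3 was higher (2.63 ± 0.15), and the ephrin receptor EPHB4 (-2.34 ± 0.10), the semaphorin receptor PLXNA2 (-1.71 ± 0.09) and NCAM1 (-1.48 ± 0.07) were lower.

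Genes of DNA replication and mitosis were lower in 24 of 26 cases and higher in 0 (median -1.36), against 31.8% lower over all genes. The replication licensing factor CDC6 (-2.41 ± 0.17), the survivin gene BIRC5 (-2.36 ± 0.19), the kinase CDK1 (-1.87 ± 0.16) and the topoisomerase TOP2A (-0.90 ± 0.08) were lower, at means of 11.9, 1.96, 7.15 and 40.8 CPM in sorted cells against 62.3, 9.68, 25.5 and 76.2 CPM in unsorted cells. Inflammatory genes were lower in 12 of 14 cases and higher in 1 (median -1.52). The chemokine CCL2 ran from 1.76 to 24.9 CPM in sorted and from 32.8 to 359 CPM in unsorted libraries (-4.04 ± 0.24). The cytokine IL1B was at 0 to 0.498 CPM against 0.860 to 14.2 CPM (-4.33 ± 0.46), so that sorted libraries held few reads of it. The cytokine receptor IL1R1 (-2.14 ± 0.16), the adhesion molecule ICAM1 (-1.64 ± 0.10) and the NF-kappaB subunit NFKB2 (-1.74 ± 0.09) were lower, and the NF-kappaB inhibitor NFKBIA was higher (0.62 ± 0.09).

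Interferon-stimulated genes were higher more often than lower, 13 higher and 1 lower of 22 (median 0.58). The viral RNA sensor DDX58 (1.28 ± 0.15) and the transcription factors IRF9 (1.19 ± 0.10) and STAT2 (0.73 ± 0.07) were higher, and IRF1 was lower (-0.47 ± 0.11). IRF1 did not pass without the block (adjusted p = 0.0589), and without either library of replicates 3 or 4 there were 2 lower members.

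Genes for protein folding and for cholesterol synthesis went both ways. Of 20 genes for folding and stress in the endoplasmic reticulum 8 were higher and 4 lower (median 0.13), among them the stress sensor ERN1 (1.07 ± 0.13), the pseudokinase TRIB3 (1.52 ± 0.19) and HERPUD1 (0.52 ± 0.09) on the higher side and EDEM1 (-0.61 ± 0.10) on the lower. Without the block 2 were lower. With the block 40% were higher and 20% lower, against 33.9% and 31.8% of all genes. Cholesterol synthesis genes were higher in 8 and lower in 3 of 16 (median 0.25), with the enzymes SQLE (0.93 ± 0.12) and LSS (0.86 ± 0.09) higher and MVD lower (-0.70 ± 0.12).

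Of 76 ribosomal protein symbols listed only 19 have a feature in the file, so the values below cover a part of the family. These genes were lower in 15 of 19 (median -0.60), and in 11 without the block. RPL29 (-0.87 ± 0.09), RPS18 (-0.47 ± 0.07) and RPL8 (-0.39 ± 0.08) were among the 15. The size of this difference depended on the depth set, with a median of -0.17 in replicates 1 to 3 and -0.88 in replicates 4 to 6, and 8 genes were called lower in the shallow set. The share of counts of the 19 genes was 0.692% ± 0.0453 (SD, n = 6) in sorted and 0.931% ± 0.145 (SD, n = 6) in unsorted libraries, lower in 6 of 6 pairs (exact sign-flip permutation p = 0.03125). Mitochondrially encoded genes took 1.15% ± 0.519 (SD, n = 6) of counts in sorted and 0.549% ± 0.272 (SD, n = 6) in unsorted libraries, higher in 6 of 6 pairs with the same exact p. As single genes 5 of 11 (45.5%) were higher and 0 lower (median 0.72), against 33.9% and 31.8% of all genes. The higher ones included CYTB (1.28 ± 0.23), COX1 (1.04 ± 0.18), ND5 (0.97 ± 0.24) and ATP6 (0.81 ± 0.20). COX1 and ATP6 did not pass without the block (adjusted p = 0.0753 and 0.0871), which left 3 genes, and 10 mitochondrial genes passed in the shallow replicates alone.

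By size alone, the 12 genes with a symbol, a call and the largest increases (higher group averaging 5 CPM or more) included EGR1, DUSP2, MCOLN3, RELN, GABRA3, GJD2, ETNPPL, A2M, GRIA2, FOSB and SLC7A14. RELN, the secreted glycoprotein reelin, lay between 83.8 and 174 CPM in sorted and 10.6 and 21.0 CPM in unsorted libraries (3.15 ± 0.10), without overlap. The endolysosomal cation channel MCOLN3 (3.28 ± 0.23), the phospholyase ETNPPL (3.04 ± 0.22) and the amino acid transporter family member SLC7A14 (2.92 ± 0.19) had means of 8.53, 5.46 and 16.0 CPM in sorted cells against 0.989, 0.613 and 2.11 CPM in unsorted cells. The 12 largest decreases under the same rule were IL1B, MMP13, CCL2, MFAP4, KRT17, LIX1, KRT14, IL-8, FIBIN, KRT5, GPR39 and TGFB3. Of those not described above, FIBIN, a secreted protein, had a mean of 17.0 against 184 CPM (-3.46 ± 0.13), LIX1 of 0.510 against 6.80 CPM (-3.72 ± 0.21), the zinc receptor GPR39 of 0.717 against 8.07 CPM (-3.40 ± 0.29) and the chemokine listed as IL-8 of 0.538 against 6.60 CPM (-3.52 ± 0.35).

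Whether sorting made a different difference with E2 than with vehicle was tested as an interaction over all 24 libraries. The CPM values and sort effects given with it come from that fit and can differ slightly from those above. Of 15134 genes tested 70 passed (0.463%), 50 with a larger sorted-minus-unsorted value with E2 and 20 with a smaller one, and 813 (5.37%) had an unadjusted p under 0.05. This count was 4 without the replicate block, 123 in DESeq2, and 58, 45, 31, 22, 23 and 26 without replicates 1, 2, 3, 4, 5 and 6 in turn. A difference of sort effects is the same quantity as a difference of E2 effects between the preparations, so the data cannot tell those readings apart.

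CAMTA1 was one of the genes with a larger difference with E2. It had 181 ± 14.6 CPM (mean ± SD, n = 6) in sorted and 48.6 ± 5.17 in unsorted cells with E2, and 87.5 ± 12.3 and 36.3 ± 5.65 with vehicle. The sort effect was 1.90 with E2 and 1.28 with vehicle, a difference of 0.63 ± 0.11 (adjusted p = 0.005). The largest positive differences of sort effects (log2, ± SE in parentheses) among genes that passed and averaged 5 CPM or more in some group were in the corepressor CBFA2T3 (1.44 ± 0.31), the rhomboid-like RHBDL3 (1.43 ± 0.24), the cyclin-dependent kinase partner CABLES2 (1.34 ± 0.20), the recombination factor RAD51D (1.20 ± 0.17) and the lipid phosphatase SYNJ2 (1.20 ± 0.19). CBFA2T3 had 10.1 ± 4.04 CPM in sorted and 2.23 ± 1.14 in unsorted cells with E2, and 2.49 ± 0.894 and 1.55 ± 0.580 with vehicle. RHBDL3, CABLES2, RAD51D and SYNJ2 had sort effects of -0.50, -0.60, -0.71 and -0.69 with vehicle and of 0.93, 0.74, 0.50 and 0.51 with E2, with opposite signs in the 2 treatments. The vehicle sort effects were given no test of their own here, so a reversal was not tested. In the fit of the E2 libraries alone, the sort effects of RAD51D and SYNJ2 did not pass edgeR's test without the block (adjusted p = 0.0813 and 0.0528).

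Among genes described above (values are differences of sort effects with their standard error), LHX3 (0.81 ± 0.15), NRIP1 (0.77 ± 0.10), RASD1 (0.83 ± 0.15), ERN1 (0.83 ± 0.17) and TOP2A (0.83 ± 0.14) also had a larger value with E2. NRIP1 was at 148 ± 37.8 CPM in sorted and 86.8 ± 15.1 in unsorted cells with E2 and at 70.7 ± 12.7 and 71.2 ± 12.2 with vehicle (sort effects 0.75 and -0.01). TOP2A was lower in sorted cells in both treatments, by a log2 change of -0.89 with E2 and -1.73 with vehicle.

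The largest negative differences of sort effects among genes that passed, at the same minimum of 5 CPM, were in CA8, a carbonic anhydrase-related protein (-1.42 ± 0.32), FOS (-1.23 ± 0.26), the orphan receptor GPR101 (-0.98 ± 0.21), the LIM-only protein LMO3 (-0.95 ± 0.19) and the pyruvate dehydrogenase kinase PDK4 (-0.80 ± 0.11). FOS was at 215 ± 71.4 CPM in sorted and 27.8 ± 6.24 in unsorted cells with E2, and at 396 ± 111 and 22.6 ± 5.74 with vehicle. CA8 was at 8.13 ± 2.70 and 5.24 ± 2.58 with E2 and 4.54 ± 0.672 and 1.19 ± 0.589 with vehicle. LMO3 was at 4.75 ± 1.25 and 4.90 ± 1.79 with E2, where sorting gave no call, and at 13.2 ± 3.54 and 7.05 ± 1.91 with vehicle. None of these 16 differences passed without the replicate block, apart from CABLES2, and those of FOS, CA8 and GPR101 were not called when any 1 replicate number was left out. Those of CAMTA1, NRIP1, CABLES2, RAD51D, SYNJ2 and PDK4 were called in each such fit, and the other 7 were lost in 1 to 5 of the 6.

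For the other genes of the gonadotrope list the interaction did not pass. The difference was -0.15 ± 0.23 for CGA, -0.08 ± 0.23 for NR5A1, -0.05 ± 0.41 for LHB, -0.05 ± 0.25 for FSHB, -0.97 ± 0.32 for GNRHR (adjusted p = 0.375) and -0.68 ± 0.17 for EGR1 (adjusted p = 0.106). GNRHR was at 22.1 ± 12.5 CPM in sorted and 5.07 ± 3.61 in unsorted cells with E2 and at 5.63 ± 2.23 and 0.719 ± 0.247 with vehicle, and the effect of E2 within a preparation was not tested here. A missed threshold does not show that the sort effects were equal.

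**Figure D5:**
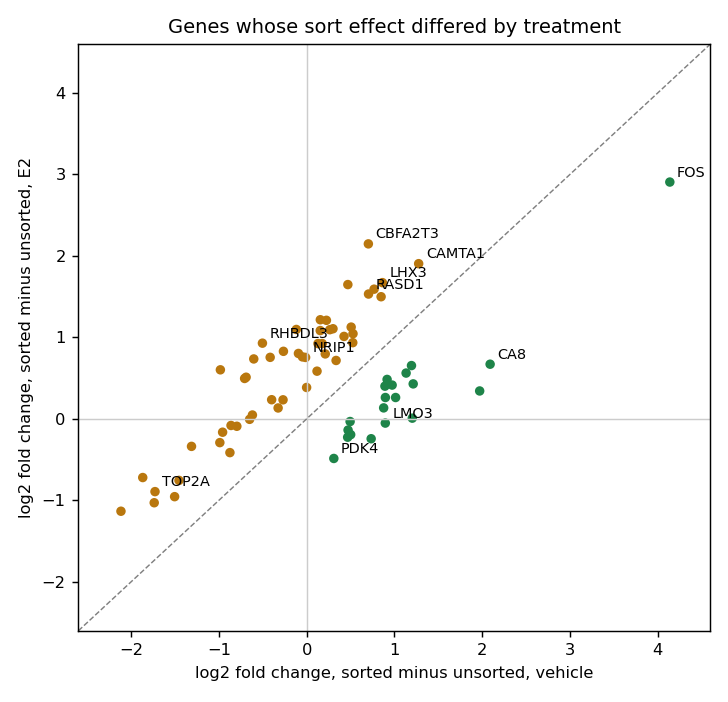
Sorted-minus-unsorted log2 fold change with vehicle (x axis) and with E2 (y axis) for the 70 genes that passed the interaction test. Orange points lie above the dashed line of equal effects (50 genes, larger with E2) and green points below it (20 genes), and FOS, at 4.14 with vehicle and 2.91 with E2, has the largest positive value in both treatments.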

How the data were processed

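RNA of sorted and unsorted sheep pituitary cultures was sequenced on an Illumina HiSeq from TruSeq libraries of 500 ng of total RNA, per the labels' protocols. The deposited values are raw counts of reads per gene, made by the authors with featureCounts 1.5.1, per the submitters' processing notes. Not given in the sources used here are aligner, build and strandedness. Antisense overlaps and near-identical copies therefore cannot be separated, and no coordinates are printed. Genes carry Ensembl sheep identifiers, and 14395 of 27054 features have a symbol in the file.

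Libraries were mapped to groups by the labels. No 2 libraries were identical. The 12 E2 libraries were fitted with edgeR 4.0.16 (R 4.3.3) by the robust quasi-likelihood F-test after filterByExpr and TMM scaling, with the replicate number as a block and Benjamini-Hochberg adjustment over all 14545 tested genes. The interaction used all 24 libraries. Same-numbered libraries correlated best in 12 of 12 cases. Correlations were 0.321 to 0.532, against -0.337 to 0.269 for other numbers. Among other numbers of the same depth set they were 0.0554 to 0.269. The pairing comes from the shared numbers, by which the comparison was defined, and this check on the same libraries did not set it. The labels do not state a shared culture. Standard errors are the absolute log2 fold change divided by the square root of F. Shares of counts were compared by exact sign-flip tests. Alternatives were the fit without the block, DESeq2 1.42.0, other scaling and filters, each depth set and each library left out.

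Genes named are the 12 largest called changes and the 5 largest called interactions each way (highest group averaging 5 CPM or more), 17 fixed genes, and up to 4 genes of smallest p in each of 34 lists. The other genes named (list members that went against their list's direction, PITX1, SPP1, ISL1, DLK1, JUN, CD14 and the 5 higher members of the activin list), and the interactions of LHX3, NRIP1, RASD1, ERN1 and TOP2A, were chosen after their values were seen. Some genes under these rules are not reported here, though the list counts include them. The comparison, members and lists were chosen with earlier results of these data known. Few reads limit the shallow libraries, and 0 reads there does not show absence. The authors' own comparison tables were not used here.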

Additional observations from a re-analysis of the deposited data

Results flagged for a closer look

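In 26 of 368 groups of 6 libraries checked (each named gene or share, sorted and unsorted separately) the highest or lowest library stood apart from the other 5 by more than Dixon's 95% critical value for 6 libraries. Chance flags about 1 in 20 groups. All are in CPM unless said otherwise.

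In sorted replicate 5 the highest values were KRT17 at 88.5 (next library 24.9), LIX1 at 1.40, CA8 at 13.2, LMO3 at 7.03 and PDK4 at 335. Among the unsorted libraries replicate 5 was highest for KRT17 at 662 and GPR101 at 121.8, and lowest for COL15A1 at 15.3. Replicate 4 was highest for GAL in both groups, at 92.2 sorted and 48.3 unsorted, for IRF9 in sorted cells at 127.7 and for FOSB in unsorted cells at 5.30, and it was lowest for ALDH1A2 in sorted cells at 10.1. Replicate 3 was highest for ITGAM in both groups, at 1.17 sorted and 4.05 unsorted, for FOS at 354 and MCOLN3 at 19.5 in sorted cells, and for FLT1 at 7.25 in unsorted cells. Sorted replicate 2 was highest for COL28A1 at 12.5 and CYTB at 9428, and unsorted replicate 2 for SCN3B at 40.9. Unsorted replicate 6 was highest for MMP14 at 259.8 and GJC1 at 14.1 and lowest for GABRA3 at 0.454. Sorted replicate 1 was highest for ERG at 1.30. Sorted replicate 6 had the lowest share of hormone gene counts, 7.54%. GAL, KRT17 and ITGAM stood apart in the same replicate number of both groups.

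For 16 named genes the sorted-minus-unsorted log2 difference with E2 differed from that with vehicle in the interaction test. The difference of differences was 0.63 for CAMTA1, 0.81 for LHX3, 0.83 for RASD1, 0.77 for NRIP1, 0.83 for TOP2A, 0.83 for ERN1, 1.44 for CBFA2T3, 1.43 for RHBDL3, 1.34 for CABLES2, 1.20 for RAD51D and 1.20 for SYNJ2. It was -1.23 for FOS, -1.42 for CA8, -0.98 for GPR101, -0.95 for LMO3 and -0.80 for PDK4. The direction was the same in 6 of 6 replicate numbers for each of these 16 genes. They were selected by that test on the same libraries, so this sameness follows largely from the selection and is no separate support.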

How the results depend on the processing

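The count of genes called between sorted and unsorted cells was 9555, and it ran from 7294 (replicates 1 to 3 only) to 10782 (all 24 libraries in the fit), with 8062 to 9864 when 1 library was left out. Under the replicate block a left-out library removes its partner's information too. Without the block 7533 genes were called, of which 7482 were also called with it. No gene called both in the reported fit and under another of these settings had opposite signs in them, the share of calls that were higher stayed between 48.8% and 52.2%, and the median log2 fold change of shared genes moved by at most 0.02. Of the 174 named genes that were called, 168 kept the call in each left-out fit that tested them, and 6 (ACVR2A, CRHR1, DOC2B, POMC, SMAD2 and TRHR) lost it in at least 1. Without the block 157 were called.

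The interaction was less stable. Its count of 70 was 4 without the replicate block, 123 in DESeq2, and 22 to 58 when a replicate number was left out. The calls of FOS and GPR101 were lost without the filter on low counts (adjusted p = 0.100 and 0.0984) and that of CA8 without robust estimation (0.0578). No cause was tested. For the shares of counts the sorted-minus-unsorted difference in percentage points ran from 3.46 to 4.68 for PRL, from 5.07 to 6.31 for the hormone genes, from 0.457 to 0.696 for the mitochondrially encoded genes and from -0.271 to -0.201 for the ribosomal protein genes when a pair was left out. Each such fit has 5 pairs, and its exact permutation p of 0.0625 is the smallest that 5 pairs can give. Without pairing the exact p was 0.0390 for PRL, 0.0260 for the hormone genes, 0.0217 for the mitochondrially encoded genes and 0.00217 for the ribosomal protein genes. Low counts in replicates 1 to 3 limit genes under about 1 CPM, and IL1B, IL-8, CSF1R, ITGAM, CRHR1 and DLK1 could not be tested in each left-out fit.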
